A study of Mus musculus with 36 samples.

Results

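Circular RNAs (circRNAs) of the mouse frontal cortex were compared across lights-on, the daily switch from the dark to the light phase. The 6 samples described are the frontal cortex libraries of ZT1, 1 h into the light phase, and of ZT21, 3 h before lights-on, with 3 replicates at each, out of 36 samples of frontal cortex and hippocampus at 6 time points. Zeitgeber time (ZT) counts hours from lights-on, and in this 12 h light and 12 h dark schedule the lights went off at ZT12. All samples came from untreated adult male mice of the strain C57BL/6, given as C57BL6/N in the study's methods, perfused before dissection, and total RNA was sequenced after depletion of ribosomal RNA. The groups share genotype, sex, tissue and schedule, and differ in the clock hour of collection and in the light. The labels number the replicates but name no animals, so the p-values given here measure the spread between these samples, which may be technical in part.

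A circRNA forms when the spliceosome joins the end of an exon back to the start of the same or an earlier exon, which closes the RNA into a ring without free ends. Such rings resist exonucleases, are long-lived, and are abundant in neurons, where many of them come from genes of the synapse. Light sets the brain's master clock in the suprachiasmatic nucleus, while the cortex follows with rhythms of its own and with the change from wake to sleep, as mice are active at night. What was counted is the number of reads that cross a head-to-tail junction, which linear RNA of the same gene lacks, and these are called circular reads below.

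The sequence across a head-to-tail junction identifies a circle. The junctions below are those of 3 circles with many reads and of 6 of the 10 circles that had the smallest p-values among those higher (5) and among those lower (5) at ZT1. Each is read 5′ to 3′ from the GENCODE vM21 transcripts (GRCm38), with the last 15 bases of the circle in lower case, followed in capitals by the 15 bases from its start, to which they are joined.
Cdr1as (chrX:61183248-61186174, plus strand, exon 6 of C230004F18Rik-206): gtctgccgtatccagGGTTTCCAGTGGTGC
Gigyf2 (chr1:87364104-87380008, plus strand, exons 4 to 8): gaagaaaagatgtagGCTCCGTGCTCTGTC
Slc8a1 (chr17:81647809-81649638, minus strand, exon 2): gaacgatgaaatagtGTTGGAGCAGTTGGA
Dennd1b (chr1:139040000-139062971, plus strand, exons 3 to 8): agcaaattaagcactGAAGTTCTGCAGAGC
Nfkb1 (chr3:135655500-135669339, minus strand, exons 2 to 6): tacccacaggtcaaaGTACCCTCAGAGGCC
Gm26917 (chr17:39844698-39844867, plus strand, inside an exon of Gm26917-202): ggccctcgttctgctGTGTGGTGGGACTGC
Ppp1r13b (chr12:111858210-111872433, minus strand, exons 2 to 4): cgcactgaaaatgggATGATATTAACCGTG
Ptms (chr6:124914408-124914710, minus strand, ends inside exons of Ptms-201): actgctgaagaggagGAGGAGAATGGAGCT
Mapk14 (chr17:28713793-28728975, plus strand, ends not both on exon boundaries): ttcctggtacagaccACGGGGCATCGTGTG
The circles of Cdr1as, Gigyf2, Slc8a1, Dennd1b, Nfkb1 and Ppp1r13b use annotated exon ends on both sides. In the Ptms circle, the last 6 bases before the junction and the first 6 after it are the same, while in the other 15 junctions read in this way 0 to 2 bases were repeated.

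Over all circRNAs listed, the 6 samples held between 11871 and 34803 circular reads, with a median of 22744, and each had between 2475 and 5265 circRNAs. The library with the fewest reads was ZT1 replicate 2 and the deepest was ZT21 replicate 2. Of 19811 circRNAs listed in the frontal cortex, 4790 had reads in 2 or more replicates of some time point and were kept, and 518 had enough reads to be tested. At 3 reads per library, the smallest share that could be told from 0 was between 0.0101 and 0.0303% of the reads kept. Replicates differed by more than counting noise (chi-square per degree of freedom 1.46 to 2.11), so none were merged. Against the tissue label, 6 of 15 excitatory neuron markers had a circle that was kept, against 2 of 15 inhibitory, 2 of 14 astrocyte, 3 of 15 oligodendrocyte and 0 of 30 oligodendrocyte precursor, microglia and vascular markers. Hippocampal granule neuron markers had 3 of 8 and olfactory bulb markers 1 of 8, so these counts do not tell frontal cortex from hippocampus. The summed share of the excitatory markers was 0.313 to 0.415% at ZT1 and 0.425 to 0.489% at ZT21. Striatal markers, of which 4 of 13 had a circle, made up 0.103 to 0.121% at ZT1 and 0.0349 to 0.0943% at ZT21. The hippocampal granule neuron markers made up 0.0202 to 0.0873% at ZT1 and 0.0543 to 0.119% at ZT21. The ranges of the excitatory and striatal markers did not overlap, while those of the other marker lists with reads overlapped. No test was run on these shares, and some rest on few reads. In ZT21 replicate 3 the striatal reads were 5, all from Rarb. The part of these shares in the results below was not tested. In whole tissue, fewer cells of a type and less RNA per cell cannot be told apart.

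Was the amount or the kind of circular RNA different on either side of lights-on? The kept circRNAs gave 20030, 9886 and 19463 circular reads in the ZT1 replicates and 22099, 29678 and 14328 at ZT21, totals that were not normalized to sequencing depth. The groups overlapped. The mean of 16460 ± 5700 (SD, n = 3) at ZT1 was 25.3% below that of 22035 ± 7675 (SD, n = 3) at ZT21, which was less than the SD of that change, 36.7 percentage points (exact permutation test, two-sided, p = 0.4; with 3 samples on each side the smallest possible p is 0.1). Without 1 sample at a time the change ranged from -36.4% (without ZT21 replicate 3) to -9.63% (without ZT21 replicate 2), and it was -10.4% without ZT1 replicate 2. Circles of several exons made up 69.1 ± 1.86% of the reads at ZT1 and 70.4 ± 1.32% at ZT21 (SD, n = 3). Single-exon circles, a class led by Cdr1as, made up 18.7 ± 1.02% and 17.6 ± 1.17%. Circles with ends off the exon boundaries made up 9.51 ± 0.558% and 9.48 ± 0.280%, and circles without a gene on their strand made up 2.66 ± 0.312% and 2.49 ± 0.399%. None of these 4 shares differed by more than the replicates did (two-sided exact permutation tests, p from 0.4 to 0.9, adjusted p from 0.667 to 0.9).

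The number of circRNAs found followed the number of reads. Before thinning, 3821, 2475 and 3773 circRNAs were found in the ZT1 replicates and 4178, 5265 and 2999 at ZT21. All samples were then thinned at random to 11871 reads, the total of ZT1 replicate 2, and circles with 2 or more reads were counted. The means were 2226 ± 216 at ZT1 and 2120 ± 136 at ZT21 (SD, n = 3, two-sided exact permutation test, p = 0.7), a difference of 4.97% against -19.1% before thinning. ZT1 replicate 2, which lost no reads, stayed at 2475, and the others stood at 1980 to 2252. Only thinned samples could lose circles by falling below 2 reads, which favours ZT1 replicate 2 in this count. Without the shallowest library, ZT1 replicate 2, the thinned difference was -0.913%. In at least 2 of 3 replicates, 2269 circRNAs were found at ZT1 and 2862 at ZT21, and 1710 at both, which is 75.4% of the ZT1 set and 59.7% of the ZT21 set. In all 3 replicates, 1019 were found at ZT1 and 1461 at ZT21, with 781 at both.

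Circles present in every replicate on only one side of lights-on were few and had few reads. Of the 1019 listed circRNAs found in all 3 replicates of ZT1, 23 had no reads at ZT21. Of the 1461 found in all 3 replicates of ZT21, 70 had none at ZT1, with the ZT21 libraries the deeper ones on average. The ones with the most reads are named here after their values were seen. At ZT1 these were a circle of Eed, a subunit of the Polycomb repressive complex that methylates histone H3, with 5, 3 and 6 reads, and a circle of Rbfox3, the neuronal splicing factor also known as NeuN, with 3, 4 and 6 reads. At ZT21 these were the Ptms circle and a circle of Ep300, the histone acetyltransferase p300, with 11, 9 and 2 reads. The diacylglycerol kinase gene Dgki had a circle on each side, with a shared end at 37087694 on chromosome 6. The shorter, from 37029763, had 5, 2 and 3 reads at ZT1 only, and the longer, from 36975147, had 4, 6 and 6 reads at ZT21 only. Among the other 12 frontal cortex samples, the shorter Dgki circle was found in 9 and the longer in 11. A circle of the GABA receptor subunit gene Gabra2 had 5, 3 and 3 reads at ZT1, a count close to the smallest that the table lists, which is 2.

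Cdr1as, a single-exon circle of 2927 nt that is antisense to Cdr1 and carries many binding sites for the microRNA miR-7, was the circRNA with the most reads. It had 2107, 1118 and 2026 circular reads at ZT1 and 2164, 3307 and 1215 at ZT21. As a share of the reads kept in each sample, this was 10.5, 11.3 and 10.4% at ZT1 and 9.79, 11.1 and 8.48% at ZT21. The lowest share, in ZT21 replicate 3, had a 95% Wilson interval of 8.03 to 8.95%, and the highest, in ZT1 replicate 2, one of 10.7 to 11.9%, intervals that cover counting error only. The mean share was 10.7 ± 0.491% at ZT1 and 9.81 ± 1.33% at ZT21 (SD, n = 3), a relative difference of 9.60% that was less than the spread (two-sided exact permutation test, p = 0.4). In normalized reads, which are scaled by edgeR's TMM factors to the mean total of the circRNAs tested, Cdr1as stood at 1902 ± 18.7 at ZT1 and 1789 ± 360 at ZT21 (SD, n = 3). The log2 fold change, ZT1 minus ZT21, was 0.09 with a standard error of 0.39 and a 95% interval from 0.606-fold to 1.86-fold (adj. p-value 0.998 from edgeR). The replicates of ZT1 lay inside the range of those of ZT21.

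The other circles with many reads were also close to level across lights-on. Tulp4, a gene of the tubby family, gave a circle of 1946 nt in the genome (chr17:6137211-6139156) whose ends do not both lie on annotated exon boundaries. It had 196, 204 and 198 normalized reads at ZT1 and 196, 181 and 188 at ZT21. The change was 0.08 on the log2 scale (standard error 0.21), with a 95% interval from 0.781-fold to 1.43-fold. Gigyf2, which encodes a translational repressor that works with the cap-binding protein 4EHP, had a circle at 179, 199 and 185 normalized reads at ZT1 and 173, 186 and 195 at ZT21. On the log2 scale the change was 0.02 (standard error 0.21), with an interval from 0.754-fold to 1.37-fold. The interval of each of these circles lay within a 2-fold change in either direction, so a doubling or halving would have been outside it.

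Among the next circles in read number, some replicates lay further apart. The second exon of Slc8a1, the sodium-calcium exchanger of the plasma membrane, gave 99.0, 84.4 and 98.7 normalized reads at ZT1 and 95.2, 82.2 and 120 at ZT21. The second exon of Fat3, an atypical cadherin that shapes dendrites, gave 98.1, 167 and 104 at ZT1 and 113, 118 and 119 at ZT21. For Fat3 the groups overlapped only through ZT1 replicate 2, the shallowest library, with its log2 fold change at 0.06 and, without that replicate, at -0.23. Circles of Dtnb (β-dystrobrevin of the dystrophin complex), Ankib1 (a ubiquitin ligase of the RBR type) and Atxn1 (ataxin 1, expanded in a spinocerebellar ataxia) had log2 fold changes of -0.05, 0.00 and 0.05, with standard errors of 0.25, 0.31 and 0.24. Ssbp2, a partner of the Ldb1 transcriptional complex, had 86.4, 62.4 and 94.9 normalized reads at ZT1 and 92.7, 106 and 94.7 at ZT21. At a log2 difference of -0.26 (standard error 0.24), it was the most negative of these 10 circles.

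The least certain of the abundant circles came from a sequence that is not placed on a chromosome. A circle on the minus strand of JH584304.1 (25369 to 60857), where no annotated gene on that strand holds both ends, had 239, 265 and 213 normalized reads at ZT1 and 151, 257 and 102 at ZT21. The groups overlapped through ZT21 replicate 2. On the log2 scale ZT1 minus ZT21 was 0.48 (standard error 0.53), with a 95% interval from 0.652-fold to 2.99-fold, so neither a level value nor a doubling was outside it. All circles on unplaced sequences together made up 1.65 ± 0.273% of the reads at ZT1 and 1.09 ± 0.478% at ZT21 (SD, n = 3, two-sided exact permutation test, p = 0.3).

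**Figure D1:**
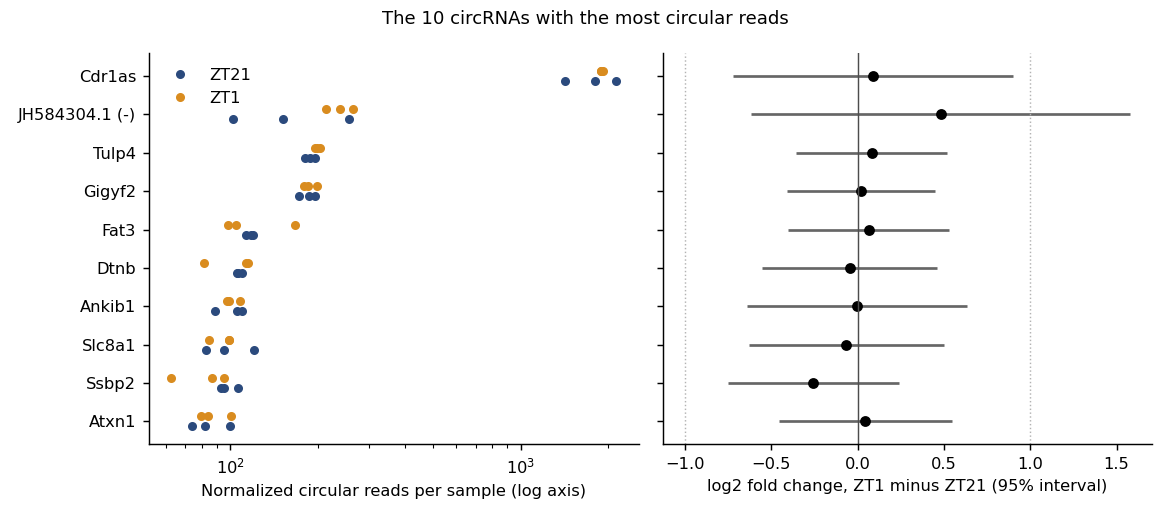
The 10 most abundant circRNAs of the 6 samples: on the left, normalized circular reads of each sample on a log axis (orange, ZT1, and blue, ZT21, 3 samples each); on the right, the log2 fold change (point) with its 95% interval (line), with dotted lines at a 2-fold change. The points of the 2 time points overlap for every circle, and only the interval of the JH584304.1 circle passes a dotted line.

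Did any single circRNA differ? At an adjusted p-value under 0.05, the quasi-likelihood test of edgeR called 0 of the 518 circRNAs (0%), and the smallest adjusted p-value was 0.998. At an unadjusted p under 0.05 there were 2 circRNAs higher at ZT1 (0.386%) and 10 lower (1.93%). DESeq2 called 1. The normalized reads of the groups did not overlap for 21 circRNAs higher at ZT1 (4.05%) and 25 lower (4.83%). The median log2 fold change was -0.03, and the 5% and 95% quantiles were -0.83 and 0.68. By class, the medians were -0.02 for 419 circles of several exons, -0.01 for 44 single-exon circles, -0.09 for 48 circles off the exon boundaries and -0.01 for 7 without a gene on their strand. With a median standard error of 0.47, the 95% interval lay within a 2-fold change for 146 of the 512 circRNAs that have an interval (28.2% of the 518). For the remaining 6, all replicates of 1 time point were at 0. Counts were simulated for the same circRNAs and samples, with 200 of the 518 changed and a dispersion of 0.05. In these the test found 30% of 2-fold changes and 96.5% of 4-fold changes. Fewer changed circRNAs or a wider spread were not simulated, so the shares found in those cases are not known.

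**Figure D2:**
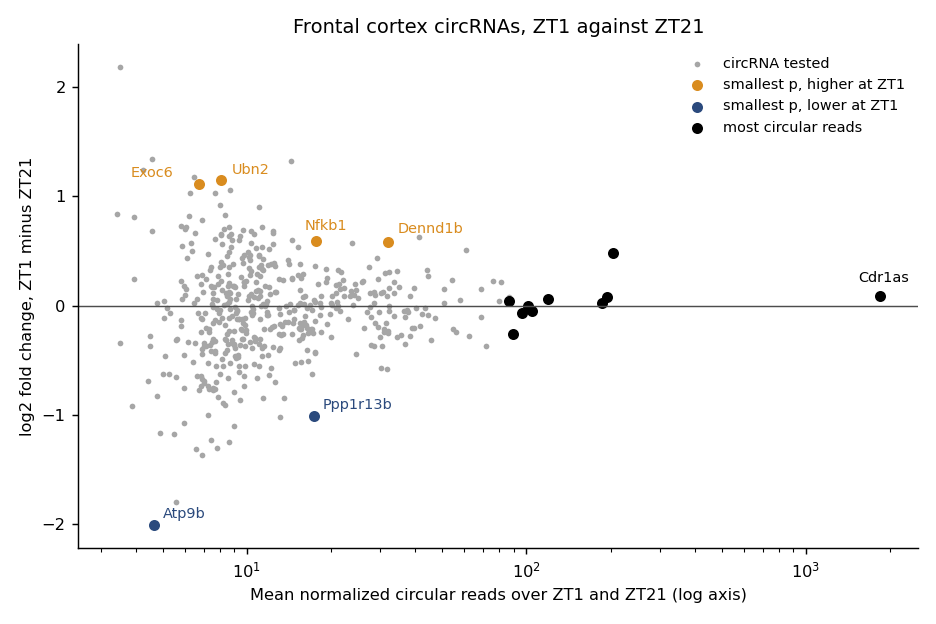
Each point is a circRNA tested, placed by its mean normalized circular reads over the 6 samples (log axis) and its log2 fold change, ZT1 minus ZT21, for the 512 circRNAs with reads at both time points. The spread narrows from low to high reads, the black points of the most abundant circles lie near 0, and the coloured points are those with the smallest unadjusted p that could be drawn, from Atp9b at -2.01 to Ubn2 at 1.15.

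The circles nearest to the threshold are described by their reads, since none of them passed it. Lower at ZT1, the smallest p belonged to the circle of Ptms, which encodes parathymosin, a small acidic nuclear protein. It spans 303 nt of the genome, or 135 nt of the spliced transcript. It had no read in any ZT1 replicate and 23, 22 and 13 reads at ZT21, so it was at least 4.94-fold lower at ZT1, taking 3 reads per library as the floor (edgeR unadjusted p = 0.00358, adj. p-value 0.998). The other time points were just as uneven. Its mean normalized reads were 6.5 at ZT5, 55.8 at ZT9, and 0 at ZT13 and ZT17, and it was found in 7 of the 18 frontal cortex samples. When only the 6 samples were fitted, its adjusted p-value from edgeR was 0.000314.

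Ppp1r13b showed the most regular difference of the circles that were present in all samples. The gene encodes ASPP1, a protein that directs p53 towards apoptosis, and its circle joins exon 4 back to exon 2 (345 nt). It had 10, 6 and 16 circular reads at ZT1 and 29, 38 and 18 at ZT21. In normalized reads this was 9.0, 10.1 and 15.2 at ZT1 and 24.2, 24.6 and 21 at ZT21, with every ZT1 replicate below every ZT21 replicate. ZT1 minus ZT21 on the log2 scale came to -1.01 (standard error 0.34), with a 95% interval from 0.306-fold to 0.804-fold (edgeR unadjusted p = 0.00606, adj. p-value 0.998). Means at the 4 time points between lay from 17.1 to 18.2 normalized reads, between those of ZT1 (11.4) and ZT21 (23.3). As the circle was picked for its difference between ZT1 and ZT21, these were likely to be its extremes. Leaving out a sample at a time kept the log2 fold change between -1.31 and -0.88.

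A circle of Mapk14, the stress-activated kinase p38α, had no read at ZT1 and 7, 5 and 5 reads at ZT21, at least 1.45-fold lower at ZT1 on the same floor (edgeR unadjusted p = 0.0133, adj. p-value 0.998). Its means at the other time points were 2.4 to 9.3 normalized reads. A circle of Atp9b, a phospholipid flippase of the Golgi, had 3, 0 and 2 reads at ZT1 and 12, 6 and 8 at ZT21, or -2.01 on the log2 scale (standard error 0.82). Both sets of groups stood apart, at levels of under 11 normalized reads. The fifth of these circles, on the minus strand of chromosome 17 at 39845364 to 39845519, had 27, 0 and 22 reads at ZT21 and none at ZT1, so its groups overlapped at 0. It lies opposite Gm26917, within a stretch of the ribosomal RNA repeat.

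Higher at ZT1, the smallest p belonged to the Gm26917 circle, from a long noncoding RNA gene annotated over that same repeat. It had 0, 75 and 103 reads at ZT1 and none at ZT21, and ZT1 replicate 1 was thus like ZT21 (edgeR unadjusted p = 0.0100, adj. p-value 0.998). The annotated transcript has ag just before the 170 nt of the circle and gt just after, the letters that flank an exon at splice sites. These letters were not compared with those of other circles, and whether the junction was spliced was not tested. It was found in 6 of the 18 frontal cortex samples, with means of 0 normalized reads at ZT5, 28.9 at ZT9, 83.2 at ZT13 and 54.4 at ZT17. All circles of the ribosomal repeat on chromosome 17 made up 0.531 ± 0.387% of the reads at ZT1 and 0.198 ± 0.123% at ZT21 (SD, n = 3, two-sided exact permutation test, p = 0.3), in libraries from which ribosomal RNA had been depleted. How completely it was depleted was not tested.

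Dennd1b, an exchange factor for the endosomal GTPase Rab35, gave the best-measured circle on this side. Its circle of exons 3 to 8 had 34.2, 40.5 and 40.8 normalized reads at ZT1 and 19.2, 28.5 and 29.2 at ZT21, without overlap. Fitted as ZT1 minus ZT21 in log2, the difference was 0.58 (standard error 0.25), with a 95% interval from 1.05-fold to 2.14-fold (edgeR unadjusted p = 0.0284, adj. p-value 0.998). At the other time points its means were 24.7 to 28.6 normalized reads, all below ZT1 (38.5). This circle too was picked for its difference between ZT1 and ZT21, which makes ZT1 likely to be an extreme. Summed over the 15 kept circles of Dennd1b, the log2 fold change was 0.06 (edgeR unadjusted p = 0.750).

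The other 5 circles with an unadjusted p under 0.05 were all lower at ZT1, and 4 of them are named here after their values were seen. Dcun1d4, a factor that helps attach NEDD8 to cullins, had 20.7, 23.6 and 28.5 normalized reads at ZT1 and 38.4, 36.9 and 32.7 at ZT21 in a circle of exons 2 to 7. These groups did not overlap, and the difference was -0.57 on the log2 scale (standard error 0.24, edgeR unadjusted p = 0.0271). The second exon of Nfix, a transcription factor of the nuclear factor I family, gave 19.8, 23.6 and 32.3 normalized reads at ZT1 and 25.9, 39.5 and 49.1 at ZT21, which overlap. A circle of Sobp had 9.0, 5.1 and 13.3 against 19.2, 10.4 and 24.5, and a circle of Ash1l, a histone H3 lysine 36 methyltransferase, had 5.4, 0 and 6.6 against 19.2, 5.2 and 10.5. Both overlapped between the groups.

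The last of the circles that stood higher at ZT1 did not reach an unadjusted p of 0.05. Nfkb1, which encodes the p105 precursor of the NF-κB subunit p50, had 18.9, 16.9 and 27.5 normalized reads at ZT1 and 15.0, 13.6 and 14.0 at ZT21. On the log2 scale it stood 0.59 higher at ZT1 (standard error 0.30, edgeR unadjusted p = 0.0554). Exoc6, a subunit of the exocyst that tethers secretory vesicles, had 14, 4 and 9 circular reads at ZT1 and 6, 8 and 2 at ZT21, which overlap as counts but not once normalized. Ubn2, a subunit of the HIRA histone chaperone complex, had 9, 11 and 8 reads at ZT1 and 8, 6 and 3 at ZT21. Their log2 fold changes were 1.11 and 1.15, with standard errors of 0.56 and 0.59.

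**Figure D3:**
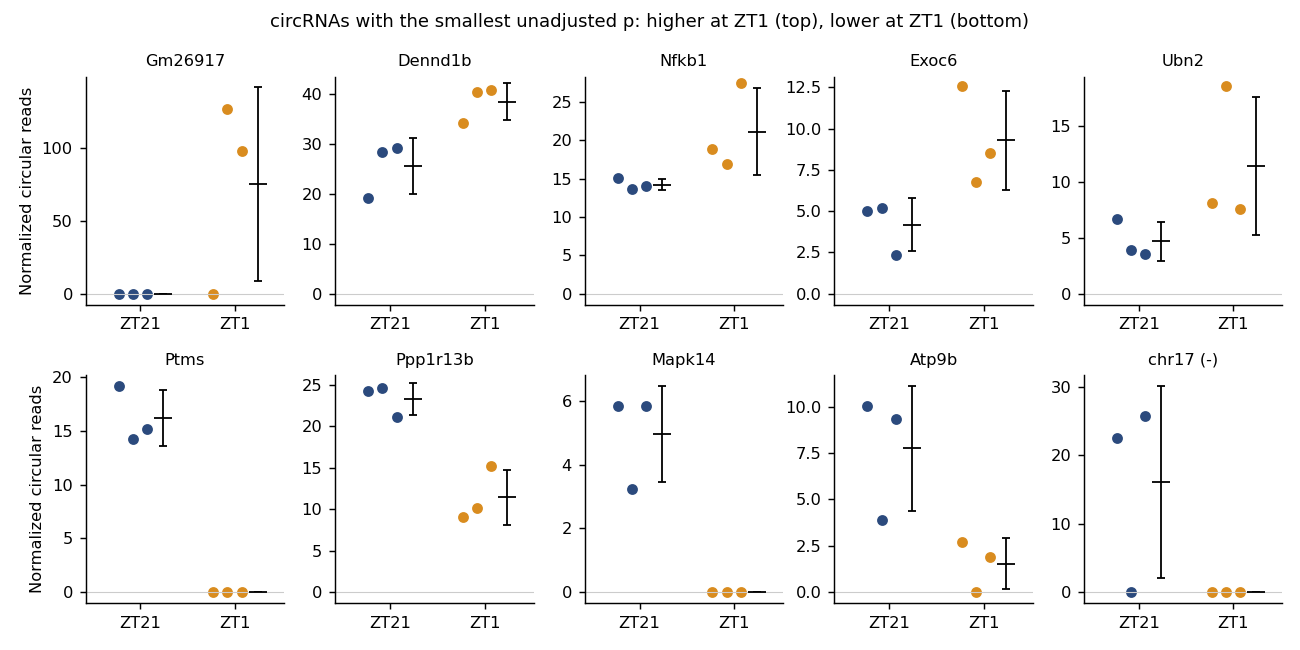
Normalized circular reads per sample (dots; blue, ZT21, and orange, ZT1; mean and SD in black, n = 3) for the 5 circRNAs higher and the 5 lower at ZT1 with the smallest unadjusted p. Ptms, Mapk14 and the minus-strand circle on chromosome 17 are at 0 in all ZT1 samples and Gm26917 is at 0 in all ZT21 samples. Dennd1b, Nfkb1, Exoc6, Ubn2 and Ppp1r13b have reads in every sample and groups that do not overlap. None of the circles drawn passed the threshold after adjustment.

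Most circles had few reads, so circular reads were also summed over the circles of each host gene, the gene on the same strand that holds both ends. Of the 559 host genes tested, edgeR called 0 at an adjusted p-value under 0.05 (0%), with 0.182 the smallest, and DESeq2 called 0. At an unadjusted p under 0.05 there were 5 higher at ZT1 (0.894%) and 8 lower (1.43%). Groups did not overlap for 24 host genes higher at ZT1 (4.29%) and 28 lower (5.01%). The median log2 fold change was 0.00, and the 95% interval lay within a 2-fold change for 180 host genes (32.2%).

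Ptbp3, a paralog of the polypyrimidine tract binding splicing regulators, had the smallest p of the host genes. Its 4 kept circles together had 0, 2 and 2 reads at ZT1 and 15, 21 and 11 at ZT21. In normalized reads the ZT21 replicates were alike, at 12.3, 13.2 and 12.9, and those of ZT1 stood at 0, 3.6 and 1.9. In log2 units the fitted difference was -3.00 (standard error 0.79), with a 95% interval from 0.0406-fold to 0.384-fold (edgeR unadjusted p = 0.000522, adj. p-value 0.182). The circle of exons 2 to 4 (chr4:59514274-59524476) held most of it, with 0, 2 and 2 reads at ZT1 and 11, 12 and 8 at ZT21. The other 3 circles of the gene had 7, 6 and 3 reads, none of them at ZT1. Means at the 4 time points between were 6.8 to 11.8 normalized reads, above the mean of 1.83 at ZT1 and below that of 12.8 at ZT21. The gene was picked for its difference between ZT1 and ZT21, which makes these likely to be the extremes. Without a sample at a time, the log2 fold change lay between -3.65 and -2.30.

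The other host genes low at ZT1 were 2210408I21Rik and Ppp1r13b, whose single kept circle is the one described above. The RIKEN gene 2210408I21Rik had 0, 3 and 2 reads at ZT1 and 12, 11 and 8 at ZT21, most of them in a circle of exons 15 to 19. The fitted log2 difference was -2.11 (standard error 0.75, edgeR unadjusted p = 0.00701, adj. p-value 0.804). Gm26917 stood highest at ZT1, at 8.8, 152 and 111 normalized reads against 3.3, 7.5 and 3.5. As a log2 difference the fit gave 4.07 (standard error 1.06, edgeR unadjusted p = 0.000653, adj. p-value 0.182), and the circle described above held 178 of its 232 reads.

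Pak3 and Mark3, both protein kinases, were the next host genes higher at ZT1. Pak3, a p21-activated kinase that acts on actin in dendritic spines, had 16, 15 and 17 reads in 5 circles at ZT1 and 7, 17 and 4 at ZT21. Normalized, these were 14.1, 27.1 and 15.9 against 5.7, 10.7 and 4.7, without overlap. The fit put the log2 difference at 1.28 (standard error 0.44), with a 95% interval from 1.30-fold to 4.57-fold (edgeR unadjusted p = 0.00679, adj. p-value 0.804). Of its circles, 4 start at exon 3 and end at exons 6, 8, 9 or 14. Mark3, a kinase that regulates the binding of proteins to microtubules, had 17.7, 12.7 and 18.7 normalized reads at ZT1 and 11.5, 6.3 and 7.0 at ZT21. In the fit the log2 difference was 1.01 (standard error 0.44, edgeR unadjusted p = 0.0271, adj. p-value 0.996), and its 5 circles all start at exon 2.

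The remaining host genes with an unadjusted p under 0.05 are likewise named after their values were seen. Higher at ZT1 were Mllt10, a cofactor of the histone methyltransferase Dot1l, and Tenm3, a teneurin that guides the matching of neurons. Mllt10 had 13.2, 21.7 and 15.9 normalized reads over 9 circles at ZT1 and 12.3, 4.4 and 5.9 at ZT21, and Tenm3 had 17.7, 16.3 and 23.3 against 14.7, 8.8 and 9.4. Lower at ZT1 were Zdhhc20, a palmitoyltransferase, with 7.9, 12.7 and 6.5 against 21.3, 18.2 and 19.9, and Prkcb, the β isoform of protein kinase C, with 15.0, 3.6 and 16.8 against 32.7, 18.9 and 24.6. The groups of these 4 genes did not overlap. Sobp, Nfix and Mapk14 were the others, each led by the circle given above.

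**Figure D4:**
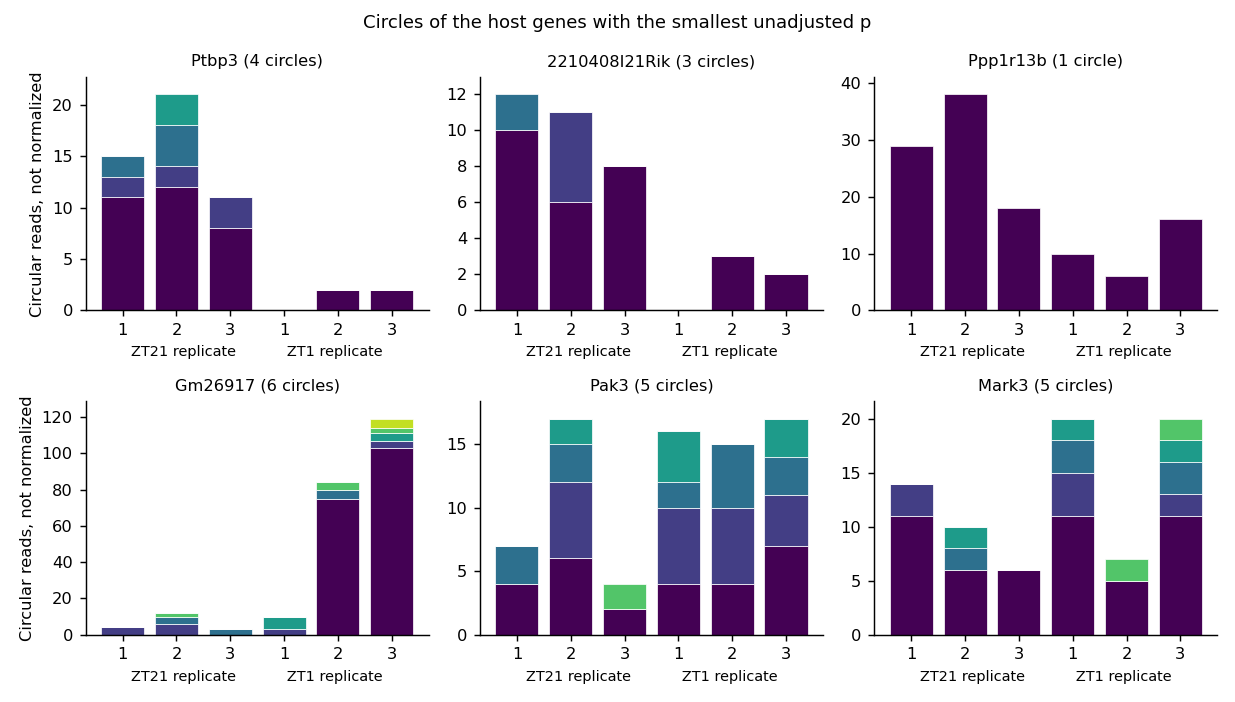
Circular reads, not normalized, of each kept circle (1 colour per circle, stacked, the circle with the most reads at the bottom) in the 3 samples of ZT21 and the 3 of ZT1, for the 3 host genes of each direction with the smallest unadjusted p. Ptbp3 has 11 to 21 reads at ZT21 and 0 to 2 at ZT1, and most reads of Gm26917, 178 of 232, lie in 1 circle, in ZT1 replicates 2 and 3.

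Host genes were grouped by function, and no list had a member past the threshold after adjustment over the 559 host genes. Of 40 genes of the presynaptic release machinery, 26 had a kept circle and 11 were tested. Of these, 9 had a log2 fold change above 0 and 2 below, with a median of 0.12 against 0.00 over all host genes, and none had an unadjusted p under 0.05. Rims1 and Rims2, scaffolds of the active zone where vesicles fuse, had 1260 and 530 reads over the 6 samples. Rims1 had 228, 115 and 191 reads at ZT1 and 235, 337 and 154 at ZT21, a log2 fold change of 0.00 with a 95% interval from 0.788-fold to 1.27-fold. For Rims2 the log2 fold change was 0.09 (standard error 0.25).

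On the postsynaptic side, 15 of 36 scaffold genes were tested, with 7 above 0, 8 below and a median of -0.03. The groups did not overlap for 2 of them higher at ZT1 (4.29% of all host genes) and 1 lower (5.01% of all host genes). Anks1b, a binding partner of the scaffold PSD-95, had 109, 34 and 92 reads at ZT1 and 100, 131 and 75 at ZT21, a log2 fold change of -0.03 (standard error 0.23). Arhgap32, a GTPase-activating protein of the postsynaptic density, stood at 0.07 (standard error 0.20). Among 25 glutamate receptor genes, 5 were tested, 4 of them below 0, with a median of -0.26. The NMDA receptor subunit gene Grin2b had 15, 12 and 26 reads at ZT1 and 39, 26 and 19 at ZT21, and the metabotropic receptor gene Grm5 had 17, 10 and 28 against 26, 36 and 20. Their log2 fold changes were -0.26 and -0.17, with standard errors of 0.34 and 0.38. Of the GABA receptor genes, 2 of 14 were tested. Gabra2 had 15.1 ± 2.60 normalized reads at ZT1 and 8.68 ± 2.64 at ZT21 (SD, n = 3) without overlap, at a log2 fold change of 0.80 (standard error 0.51, edgeR unadjusted p = 0.119), and Gabra4 stood at -0.29 (standard error 0.63).

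The genes that hold synapses together and those that carry currents were spread about 0. Of 48 synaptic adhesion genes, 13 were tested, with 7 above 0, 6 below and a median of 0.01. Nlgn1, a postsynaptic adhesion protein of excitatory synapses, stood at a log2 fold change of -0.06 (standard error 0.36). Tenm3 was the 1 member with an unadjusted p under 0.05, at 0.81, where 0.894% of all host genes were higher at ZT1 by that measure. Of 48 ion channel genes, 16 were tested, with 11 above 0, 5 below and a median of 0.14. The sodium-activated potassium channel gene Kcnt2 had 84, 36 and 102 reads at ZT1 and 110, 141 and 87 at ZT21, a log2 fold change of -0.24 (standard error 0.30), and the calcium release channel gene Ryr2 stood at 0.12 (standard error 0.25).

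Genes tied to time of day gave few circular reads. Of 32 names on the circadian clock list, where Arntl and Bmal1 name the same gene, 5 had a kept circle and 1 was tested. This was Npas2, a partner of Bmal1 that can stand in for Clock, with 23, 10 and 14 reads at ZT1 and 17, 22 and 7 at ZT21, a log2 fold change of 0.47 (standard error 0.50) with a 95% interval from 0.681-fold to 2.82-fold. All clock genes together made up 0.0822 to 0.170% of the circular reads at ZT1 and 0.0698 to 0.128% at ZT21. Of a list of 36 genes linked to neuronal activity or light, 11 had a kept circle and 4 were tested (Homer1, Hdac4, Ntrk3 and Pde4d). The light-induced genes Fos, Egr1 and Npas4 had no kept circle, so their response was not measured. All 4 genes tested lay below 0, with a median of -0.28. The most abundant, Homer1, whose protein links metabotropic glutamate receptors to calcium stores, had 29.1 ± 4.21 normalized reads at ZT1 and 37.3 ± 10.1 at ZT21 (SD, n = 3). On the log2 scale this came to -0.36 (standard error 0.38), with a 95% interval from 0.449-fold to 1.34-fold, and the groups overlapped. The neurotrophin receptor gene Ntrk3 stood at -0.05 (standard error 0.39). Of 28 sleep regulators 5 were tested, with 2 above and 3 below 0 and a median of -0.14, and the lowest of these values was that of Homer1.

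The splicing and RNA editing list held 43 names, of which Qk and Qki name the same gene. From this list 7 genes were tested, with 3 above 0, 4 below and a median of -0.37. Ptbp3 was the 1 member with an unadjusted p under 0.05, where 1.43% of all host genes were lower at ZT1 by that measure. Elavl3, a neuronal RNA-binding protein, had 57, 21 and 69 reads at ZT1 and 50, 68 and 29 at ZT21, a log2 fold change of 0.39 (standard error 0.28), and Khdrbs3 stood at 0.08 (standard error 0.49). Of 57 chromatin regulators, 17 were tested, with 4 above 0, 13 below and a median of -0.24. The highest was Mllt10 at 1.12, and none of the 13 below 0 had an unadjusted p under 0.05. The most abundant were Kat6b, a histone acetyltransferase, at 0.26 (standard error 0.18) and Nsd2, a histone H3 lysine 36 methyltransferase, at 0.01 (standard error 0.23). Of 61 genes of the ubiquitin system, 15 were tested, with 4 above 0, 11 below and a median of -0.12. Ankib1 stood at 0.07 (standard error 0.28) and Rnf169, a ligase recruited to DNA breaks, at -0.12 (standard error 0.28).

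Of 24 genes well known for their circRNAs in brain, 18 were tested, with 9 above 0, 9 below and a median of 0.02, and their circles made up 17.4 to 18.3% of the circular reads at ZT1 and 16.1 to 17.7% at ZT21. The leading members were C230004F18Rik, the host of Cdr1as, at 0.13 (standard error 0.33) and Tulp4 at 0.11 (standard error 0.17). Of 4 excitatory neuron markers tested, all lay below 0, with a median of -0.23. Sv2b, a synaptic vesicle protein, stood at -0.10 (standard error 0.32), and Arpp21, a cAMP-regulated phosphoprotein, at -0.06 (standard error 0.48). The other markers tested were Bmpr1b at -0.77 for astrocytes (standard error 0.80), Meis2 at 0.83 for striatal neurons (standard error 0.71) and Zbtb20 at 0.38 for hippocampal granule neurons (standard error 0.68).

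**Figure D5:**
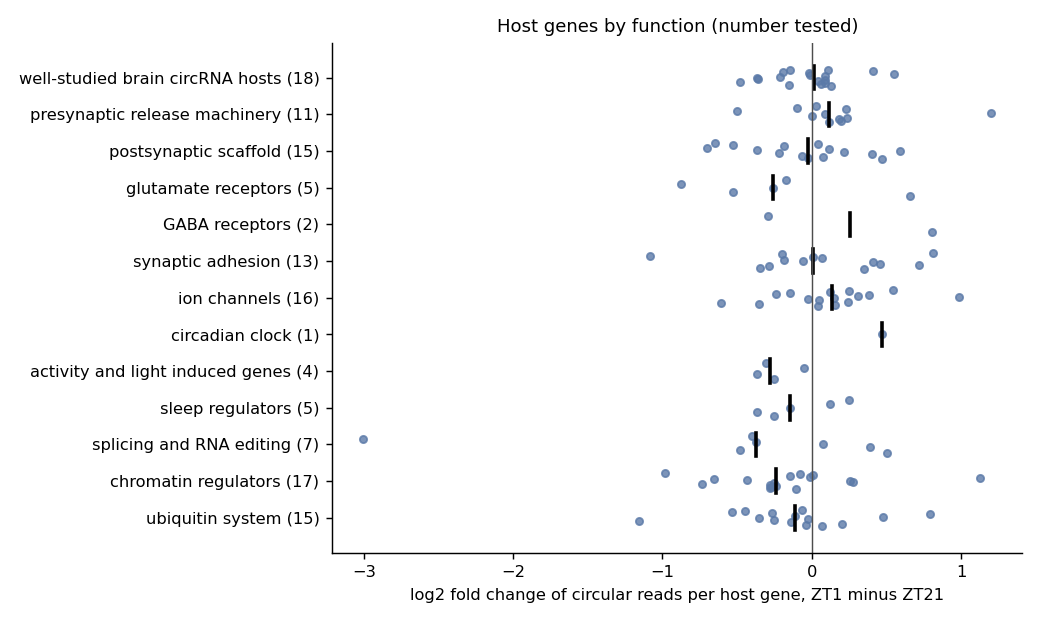
Each dot is a host gene tested, placed by its log2 fold change of summed circular reads, ZT1 minus ZT21, in the function list it belongs to (some genes are on more than 1 list), and the black bar is the median of the list. The medians of these 13 function lists lie between -0.37 and 0.47, the latter from the 1 clock gene tested, and the dot far to the left is Ptbp3 at -3.00.

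The hippocampus of the same series was sampled at the same hours, and each circRNA's change from ZT21 to ZT1 was compared between the tissues in a fit of all 36 samples. The difference between the tissues passed the threshold for 0 of 710 circRNAs (0%) in edgeR's test, with 0.198 the smallest adjusted p-value and 22 at an unadjusted p under 0.05 (3.1%). DESeq2 called 1. The smallest p belonged to the Gm26917 circle, with 0, 75 and 103 reads at ZT1 and none at ZT21 in the cortex, and none at ZT1 and 146, 171 and 174 at ZT21 in the hippocampus (edgeR unadjusted p = 0.000279). A circle within the long noncoding RNA gene Malat1 had 4, 0 and 0 reads at ZT1 and 13, 10 and 0 at ZT21 in the cortex, against 14, 8 and 28 at ZT1 and none at ZT21 in the hippocampus (edgeR unadjusted p = 0.00376). In both circles, at least 1 group had no reads at all.

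The circles that differed most regularly in the cortex had other values in the hippocampus, without a difference that passed. Ppp1r13b had a log2 fold change of -0.11 in the hippocampus, and the difference between the tissues was -0.91 (standard error 0.56, edgeR unadjusted p = 0.108). For the Dennd1b circle, these were -0.23 and 0.80 (standard error 0.54, edgeR unadjusted p = 0.149). The Ptbp3 circle of exons 2 to 4 had 9, 3 and 17 reads at ZT1 and 2, 4 and 5 at ZT21 in the hippocampus, a difference between the tissues of -3.24 (standard error 1.30, edgeR unadjusted p = 0.0140, adj. p-value 1.00). The Ptms circle was in 1 of 3 hippocampus samples at either time point, with 54 reads at ZT1 and 20 at ZT21. Cdr1as stood at 0.32 in the hippocampus, and the difference between the tissues was -0.25 (standard error 0.48, edgeR unadjusted p = 0.610). Without a filter on low counts, this difference for Cdr1as was -0.49 and passed the threshold (adj. p-value 0.00421 from edgeR), while it did not pass under any other alternative run.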

How the data were processed

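Total RNA of 36 samples was sequenced after depletion of ribosomal RNA. The authors mapped the reads to GRCm38 with BWA, found head-to-tail junctions with CIRI2 at default parameters, and deposited the circular reads per circRNA and sample as counts, without normalization or pooling. The hippocampus table has 1 further column that matches no sample and was not used. Linear counts and sequencing totals were not analysed here, so a change shared by all circRNAs would not be seen after normalization.

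CircRNAs with reads in 2 or more replicates of some time point were kept and placed on GENCODE vM21 (GRCm38). Of these, 85.1% had both ends on exon boundaries. The study tested circular with linear counts in one DESeq2 run. Here edgeR 4.0.16 in R 4.3.3 (TMM, filter on low counts, quasi-likelihood test, Benjamini-Hochberg adjustment at 0.05) was fitted to all 18 frontal cortex samples, with ZT1 minus ZT21 as the contrast, and to all 36 samples for the difference between tissues. Unadjusted p-values come from the same test. Standard errors come from the unshrunk coefficients. The 95% intervals have their width from these standard errors and are centred on the log2 fold change that edgeR reports, which is shrunk by a prior count. Neither is given where a time point had no reads. Shares, totals and numbers were compared by exact permutation tests over samples, after 100 thinnings in the case of numbers. Scripts ran under Python 3.11.15 with pandas 2.3.3, numpy 2.4.6, scipy 1.17.1 and matplotlib 3.10.9. Errors after ± are SD. Wilson intervals and the floor of 3 reads per library leave out every error but that of counting.

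Named are Cdr1as, the 10 most abundant circRNAs, the 5 higher and 5 lower at ZT1 with the smallest p, 3 host genes in each direction, 3 circRNAs by the difference between tissues, and the 2 host genes with the most reads of each of 13 function and 10 marker lists, where tested. Some of these are not reported here. The members, lists and tests were chosen with earlier results of these data known. Alternatives were other scaling, DESeq2 1.42.0, no filter, fewer samples in the fit, a replicate block, other rules for keeping circRNAs, and leaving out each sample. The test was tested on simulated data with 200 of 518 circRNAs changed at a dispersion of 0.05, which gave 1 false call at 2-fold and 9 at 4-fold.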

Additional observations from a re-analysis of the deposited data

How the results depend on the processing

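The count of circRNAs called, 0 of 518, stayed at 0 with DESeq2's size factors, with scaling to total circular reads, with circRNAs found in all 3 replicates, with all circRNAs listed, and without each of the 6 samples (0 to 0) or without ZT9 replicate 3. It was 1 with DESeq2 (Gm26917, adj. p-value 0.00244), 3 of 4790 without a filter on low counts (Gm26917, Ptms and the minus-strand circle on chromosome 17) and 1 of 344 with only the 6 samples fitted (Ptms). For host genes the count was 0 under each alternative other than no filter, which called 1 of 2155 (Gm26917, adj. p-value 9.23e-25 from edgeR), and other than leaving out samples, which gave 0 to 1, the 1 being Gm26917 without ZT1 replicate 1 (adj. p-value 0.0421 from edgeR). For the difference between tissues DESeq2 called 1 (Gm26917), no filter called 10 of 6656 (Cdr1as among them, adj. p-value 0.00421 from edgeR), and leaving out a sample gave 0 to 1, the 1 being a circle of Zfp644 without frontal cortex ZT1 replicate 3. With a replicate block over the 6 samples, 0 of 344 circRNAs and 0 of 434 host genes were called, and Ppp1r13b had a log2 fold change of -1.04. The numbers of circRNAs differed by -19.1% when not thinned and by -17.4% when not thinned and counted among those kept. The totals and shares moved by less than their spread under each alternative run. Of the values of single circRNAs and host genes under the alternatives, 745 kept their direction and their side of the threshold, and 64 changed sign while within 1 standard error of 0. The other 12 passed the threshold, among them values for the circles of Gm26917, Ptms, Malat1, Cdr1as and the minus strand of chromosome 17 and for the sum of Gm26917. The causes of these differences were not tested. Same-numbered replicates of ZT1 and ZT21 had correlations of 0.05, -0.06 and -0.05 in their deviations from the group means. These values show no pairing by number, but most circles had few reads, so a weak pairing could be missed. In simulated counts with 200 of 518 circRNAs changed, at the depth and number of these samples, 30% were recovered at 2-fold and 96.5% at 4-fold.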

Other observations

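Further circles with reads in all ZT21 samples and none in the ZT1 samples are described here after their values were seen. Auts2, a gene of neuronal migration and gene activation, had a single-exon circle of 213 nt with 4, 6 and 7 reads at ZT21. Snhg14, the long noncoding RNA that runs antisense to Ube3a, had a circle with 5, 7 and 8 reads. Circles of Stag1, a cohesin subunit, and Lrrfip1 had 17 reads each, and each of these 4 was found in 9 or 10 of the 12 frontal cortex samples at other time points. The smallest count above 0 that the files list is 2.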
